A study of Homo sapiens with 2 samples.

Results

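The alpha-2-macroglobulin family and its receptor were followed in SAS cells, a human squamous carcinoma line of the tongue, and in eSAS cells, the population left after 5 rounds of selecting SAS cells for large spheroids with a removable mesh filter. The genes were A2M, PZP, A2ML1, CPAMD8 and CD109, together with the receptor LRP1 and its chaperone LRPAP1. All probes that the array lists under these 7 symbols were taken, which gave 10 of 41000 probes and 19 spots. The genes were picked because the A2M probe had already been seen to differ between the arrays, so its difference is a description and was not tested. Total RNA of each population, from cells in logarithmic growth, was hybridised to 1 array. The SAS cells were the unselected parent (0 rounds), and eSAS was a selected population that the labels do not call a clone. The paper also describes starting a line from a single cell, without saying whether the eSAS cells on the array came from this step. Both were labelled with the same dye on arrays of the same slide. With 1 array per population, SAS and eSAS could not be tested against each other, and differences between cultures cannot be told apart from differences between the hybridisations.

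Alpha-2-macroglobulin is a large secreted protein that traps proteases. Cleavage of its bait region by a protease triggers a change of shape that encloses the enzyme, and in most family members a reactive thioester bond then ties the enzyme to its trap. LRP1, a large endocytic receptor of the LDL receptor family, removes the complexes from the extracellular space. A2M is known mainly as a plasma protein made in the liver, whereas A2ML1 and CD109 are known from stratified squamous epithelium.

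Values are processed signals, the linear spot intensities of the scanner software after background subtraction, followed by the log2 ratio of eSAS to SAS after each array was divided by the 75th percentile of its signals (1242 for SAS and 1196 for eSAS). The software called 69.4% of SAS spots and 67.5% of eSAS spots well above background, and 0 were saturated. Probes spotted several times gave a technical yardstick, the pooled SD of the log2 ratios of their spots. It was 0.205 where the SAS signal was below 100, 0.0801 from 100 to 1000 and 0.0425 above that. This SD covers spots of the same hybridisations, not differences between hybridisations or cultures. Of the 194 spots marked as non-uniform on the SAS array, 183 lay in rows 450 to 510, against 6 of 9 on the eSAS array. Among the family, the second LRPAP1 probe described below (row 506) and 1 of the 10 LRP1 spots (row 495) lay in these rows.

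The A2M probe was far brighter with RNA of eSAS cells than with RNA of SAS cells, and the rest of the family lay close to equality. Of the 9 family probes above background in SAS, in eSAS or in both, 1 was 2-fold or more higher in eSAS, the A2M probe, and 0 were lower by 2-fold or more. Over all 28439 probes measured in this way, the shares were 1.83% for higher and 1.97% for lower, and because A2M was chosen on this same ratio nothing is read from its count. The 7 other probes measured on both arrays had log2 ratios between -0.34 and 0.23, that is folds of 0.791 to 1.17. With A2M included, the median log2 ratio of the family was -0.039, beside -0.0039 for all 26659 probes measured on both arrays, whose SD was 0.36.

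**Figure D1:**
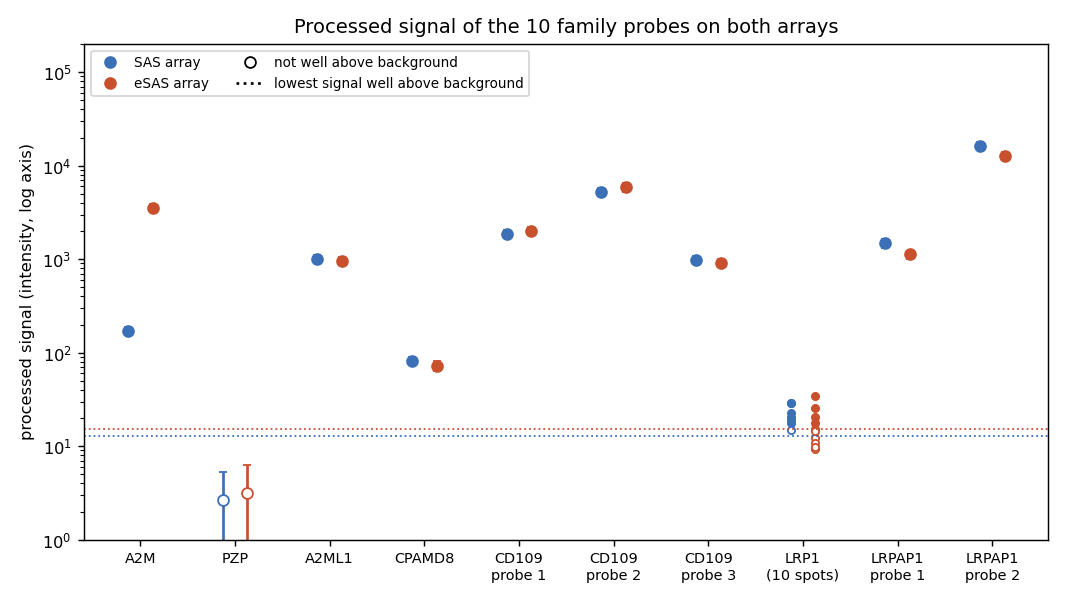
Processed signal (linear intensity on a log axis) of the 10 family probes on the SAS array (blue) and the eSAS array (red). Bars are the error given by the scanner software for single spots, cut off at the axis for PZP, and all 10 spots are drawn for LRP1. A2M stands apart at 172 and 3514, while PZP lies under the lowest signal well above background on both arrays (dotted lines, 12.8 for SAS and 15.2 for eSAS).

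A2M, the founding member of the family and its main circulating form, had 1 probe under its symbol, A_23_P116898, which targets NM_000014 on the minus strand at chr12:9112626-9112685 of hg18. In SAS its processed signal was 172 ± 17.5, and in eSAS it was 3514 ± 351, where the error is the software's estimate for the single spot. The eSAS spot was therefore the bright one, and the SAS spot was dim but well above background. The log2 ratio was 4.41, a 21.2-fold difference, with an error of 0.21 carried over from the software. Ranked by ratio among the probes measured on both arrays, A2M was in place 2. The probe ranked above it was 38.4-fold higher and the next below it 10.5-fold, and the A2M fold was 18.1 times that of the family probe nearest to it.

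The spot itself was unmarked on both arrays and lay in row 95, outside the rows with uneven spots. The local background around it was 30 in SAS and 29.5 in eSAS. Its pixel SD over pixel mean was 0.192 in SAS and 0.178 in eSAS, and spots of similar brightness (within 2-fold) had medians of 0.172 and 0.116. When the median pixel was used in place of the processed signal, the spot gave 207.5 and 3264, a raw ratio of 15.7. None of the 8 adjacent spots was marked, their log2 ratios ran from -0.29 to 0.29, and the brightest of them reached 1138 on the eSAS array. The size of the difference depended on the background treatment. The fold was 16.6 with no background subtraction. It was 11.8 when the local background was subtracted from mean pixels by the normexp model, which was run with an offset of 50 added to every spot. With normexp run without spots of marked local background it was 15.2. The effects of the subtraction and of the offset were not separated.

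A further probe on the same strand did not show this difference. Probe A_32_P48842 lies 9.08 kb from the A2M probe, at chr12:9121707-9121766 of hg18, and the array lists it under AF109189, an mRNA called FWP007. FWP007 is given as a synonym of A2M in the RefSeq gene table, but the probe carries no A2M symbol on the array and was therefore outside the selection. It gave a processed signal of 567 ± 56.8 in SAS and 558 ± 55.9 in eSAS. The log2 ratio was 0.031 with a software error of 0.20, so this probe gave nearly the same signal on both arrays. The mean of both probes would be 2.22, or 4.66-fold. What the AF109189 probe measures, and why the probes differ, was not tested.

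**Figure D2:**
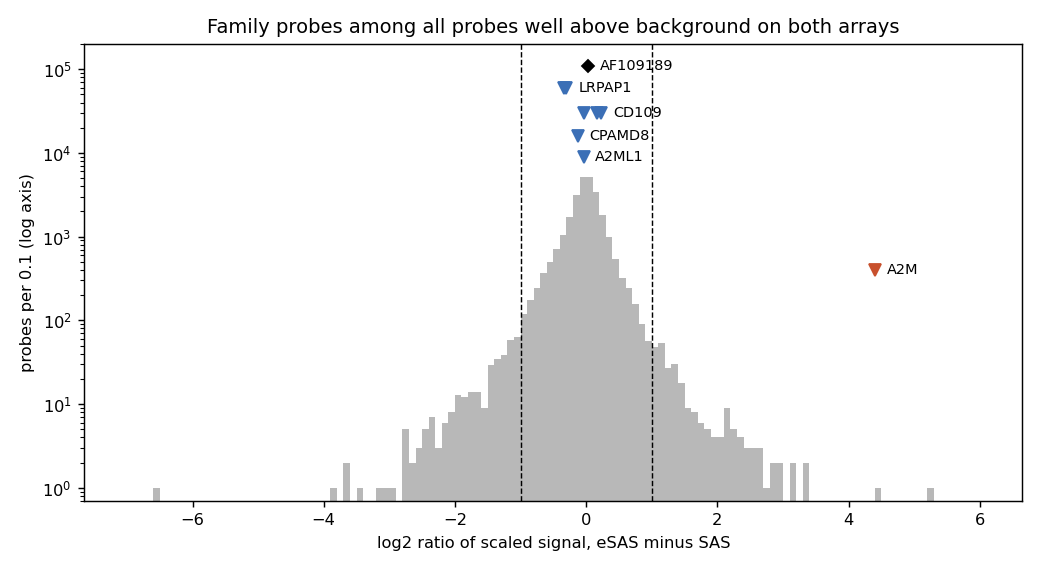
Number of probes (log axis) per bin of the log2 ratio of scaled signal, eSAS minus SAS, for the 26659 probes well above background on both arrays. Triangles mark family probes and the diamond the AF109189 probe, at arbitrary heights, and dashed lines mark 2-fold differences. A2M lies at 4.41, and the 7 other family probes lie between -0.34 and 0.23.

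In total RNA from a culture, fewer cells that express a gene and less of its RNA per cell cannot be told apart, so markers of other cell types that make A2M were read beside it. Of 11 hepatocyte markers, 2 were well above background, SERPINA1 with a log2 ratio of 0.14 and HP with 0.15, while ALB, APOA1, TTR and the fibrinogen chains were not well above background in SAS or eSAS. The summed signal of the hepatocyte list was 5022 in SAS and 5327 in eSAS. Of 7 fibroblast markers, COL1A1 was well above background on the SAS array alone, and LUM on the eSAS array alone, with signals of 3.21 and 29.6 and a difference of at least 2.40-fold. COL1A2, COL3A1, DCN, PDGFRA and PDGFRB were not well above background, and the summed signal of the list was 75.6 in SAS and 84.7 in eSAS. Of 6 endothelial markers, CDH5 was well above background in SAS and VWF in both, and the list summed to 129 in SAS and 117 in eSAS. Of 6 macrophage and monocyte markers, CSF1R, CD68 and CD14 were well above background on both arrays with log2 ratios from -0.019 to 0.17, while PTPRC was not, and the list summed to 1714 and 1734. The part of LUM-expressing cells in the A2M difference was not tested.

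All 10 genes of the list of squamous epithelial markers were well above background on both arrays. Their median log2 ratio was -0.47 and their summed signal went from 122269 in SAS to 89950 in eSAS. The brightest of them was EPCAM, with 40809 in SAS and 40413 in eSAS. KRT14, a keratin of basal cells, was lower in eSAS at both of its probes, 95.4-fold at the probe with signals of 8749 and 88.3 and 2.35-fold at the probe with 3136 and 1286.

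PZP, or pregnancy zone protein, is the closest relative of A2M in sequence and is known as a plasma protein that rises in pregnancy. Its probe, A_23_P139682 for NM_002864, lies between chr12:9195511-9196117 of hg18 on the minus strand. The processed signal was 2.64 in SAS and 3.14 in eSAS. It was not well above background on either array, so no fold is given.

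A2ML1 encodes a secreted protease inhibitor of the family that is known from the upper layers of the epidermis. Its probe, A_23_P372962 for NM_144670, lies between chr12:8911901-8912132 of hg18 on the plus strand. The processed signal was 1016 ± 102 in SAS and 952 ± 95.3 in eSAS. The log2 ratio of -0.040 was smaller than the SD of replicate spots of like brightness.

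CPAMD8 combines the domains of the family with a Kazal-type inhibitor domain. Its probe, A_23_P67198 for NM_015692, lies at chr19:16864812-16864871 of hg18 on the minus strand. The processed signal was 82.2 in SAS and 72.4 in eSAS, a log2 ratio of -0.13, which is within the replicate-spot SD of 0.205 for dim probes. With normexp on mean pixels the log2 ratio became 2.18, a setting in which the median of all probes moved to 0.53. With normexp run without spots of marked local background it was -0.084.

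CD109 is a cell-surface member of the family, held by a lipid anchor, and is known as a co-receptor that dampens TGF-beta signalling. Its 3 probes, all for NM_133493 on the plus strand of chromosome 6, let the gene be measured at several positions. At chr6:74590038-74590097 of hg18 the processed signal was 1862 in SAS and 2014 in eSAS, a log2 ratio of 0.17. At chr6:74594548-74594607 it was 5210 and 5870, a log2 ratio of 0.23. At chr6:74591349-74591408 it was 977 and 916, a log2 ratio of -0.039. The first and second of these probes were slightly brighter with eSAS RNA and the third slightly dimmer. With normexp on mean pixels all of these signs turned, to -0.10, -0.23 and 0.099. That setting moved the median of all probes to 0.53. With normexp run without spots of marked local background the signs held, at 0.15, 0.24 and -0.030. With the processed signal, the mean log2 ratio was 0.12 with an SD of 0.14 over the 3 probes, or 1.09-fold. The probes share the transcript and the RNA and are not replicates.

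LRP1, the endocytic receptor for protease-bound A2M, was close to the detection limit on both arrays. Its probe, A_23_P124837 for NM_002332, lies at chr12:55892213-55892272 of hg18 on the plus strand and was spotted 10 times. On the SAS array the processed signals of these spots had a lowest value of 14.8, a median of 20.0 and a highest value of 29.3. On the eSAS array the lowest was 9.23, the median 14.9 and the highest 34.5. The ranges overlapped, and 7 of 10 spots were dimmer on the eSAS array. In SAS 9 of 10 spots, and in eSAS 4 of 10, were well above background.

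Without the 2 spots that the software marked as outliers, the mean signals of LRP1 were 19.9 and 14.8. Since the probe was then not well above background on the eSAS array, the difference is a bound under the scaling used here, at least 1.26-fold lower in eSAS, or -0.34 on the log2 scale. It was -0.30 without rows 450 to 510, which hold 1 unmarked spot with a log2 ratio of -0.92. With normexp without marked local backgrounds it was -0.092. With normexp on mean or median pixels, and with no background correction, no bound could be given. The measured log2 ratio over the 8 spots was -0.37 with a spot SD of 0.45, and single spots, marked spots included, ran from -1.38 to 0.84. Of the 8 unmarked spots, 6 were dimmer on the eSAS array.

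**Figure D3:**
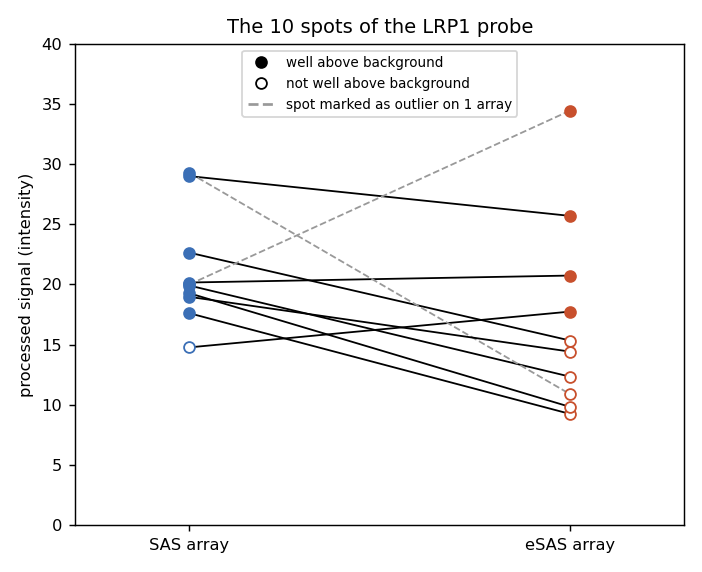
Processed signal (linear intensity) of the 10 spots of the LRP1 probe, joined between the SAS and the eSAS array. Open circles are spots not well above background, and dashed lines join spots marked as outliers on 1 array. The ranges of 14.8 to 29.3 and 9.23 to 34.5 overlap, and 7 of 10 spots were lower in eSAS.

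LRPAP1, also called RAP, is the endoplasmic reticulum chaperone that keeps ligands off LRP1 and its relatives until they are exported. Both of its probes target NM_002337 on the minus strand of chromosome 4. The probe A_23_P29851, between chr4:3491669-3496441 of hg18, had a processed signal of 1478 in SAS and 1125 in eSAS, a log2 ratio of -0.34. The probe A_24_P277331, at chr4:3484146-3484205, had 16237 and 12704, a log2 ratio of -0.30. Both probes were dimmer with eSAS RNA, and their log2 ratios differed by 0.039. Their mean was -0.32, or 1.25-fold lower. Variation between cultures or hybridisations was not measured, so no significance can be given to this difference. With normexp on mean pixels, which moved the median of all probes to 0.53, the log2 ratios were -0.12 and -0.81. With normexp run without spots of marked local background they were -0.30 and -0.28. The direction held in both settings, and the size changed in the first.

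The array holds 51 further probes within 1 Mb of the A2M probe on chromosome 12, where PZP and A2ML1 also lie, and these show whether the A2M difference extended to its surroundings. They belong to 42 genes or array names, of which 17 were measured on both arrays with a median log2 ratio of 0.042. Relative to all genes the median was 0.044, and with normexp on mean and median pixels it was 0.89 and 0.88. With normexp run without spots of marked local background it was 0.040. Well above background in SAS, in eSAS or in both were 27 of the 51 probes, from 21 genes. Of these 21 genes, 0 were brighter with eSAS RNA by 2-fold or more, and 2 were dimmer to that extent, each at 1 probe. Over the whole array, 1.83% of the probes measured in this way were brighter and 1.97% dimmer by as much. The difference in share was not tested. FAM90A1, 847 kb away, was 4.00-fold lower at 1 probe while its other probe was not well above background, and the transcript BM717049, not well above background in eSAS, had a bound of -1.07 on its log2 ratio. The nearest probes measured on both arrays were AF109189, at 9.08 kb, and an unnamed probe at 66.6 kb with a log2 ratio of 0.57, and LINC00612, at 13.1 kb, was not well above background. With the processed signal, no other measured probe of the region was 2-fold or more higher in eSAS.

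**Figure D4:**
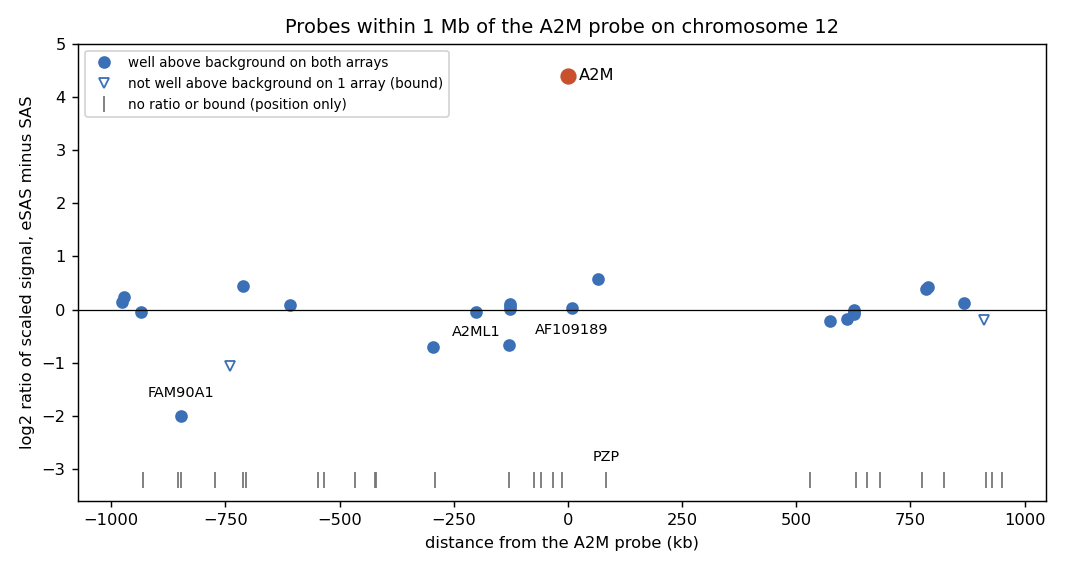
Log2 ratio of scaled signal, eSAS minus SAS, against the distance in kb from the A2M probe for the probes within 1 Mb of it. Triangles are bounds, and ticks at the bottom give only the position of probes with no ratio or bound, among them PZP. A2M lies at 4.41, AF109189 at 0.031 and A2ML1 at -0.040.

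The genes whose ratio was most like that of A2M were found by the absolute difference of log2 ratios among the probes measured on both arrays, which amounts to a likeness over 2 arrays only. The transcript ENST00000338711 differed from A2M by 0.86, with signals of 33.0 and 1219. VNN1, a pantetheinase of the cell surface, differed by 1.01, with signals of 56.8 in SAS and 575 in eSAS. SLC25A26, the mitochondrial carrier of S-adenosylmethionine, and MAPRE2, a microtubule end-binding protein, each differed by 1.24 and were 8.98-fold and 8.97-fold higher in eSAS. Of the 5 genes nearest to A2M, 3 lay in rows 450 to 510, namely ENST00000338711, SLC25A26 and MAPRE2. The VNN1 spot lay in row 513, just beyond them.

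Among relatives that share the thioester fold, 3 genes were measured on both arrays. Complement C3, which like A2M uses its thioester to bind targets covalently, had signals of 569 in SAS and 1186 in eSAS and was 2.16-fold higher. C4B had 38.6 and 38.9, a log2 ratio of 0.065, and the signal of C4A may not be separable from it because the genes are nearly identical. The ovostatin pseudogene OVOS2P had a log2 ratio of -0.057, and C5 was not well above background. The median of this list was 0.065, beside -0.0012 over all 19476 genes measured on both arrays. Of all measured probes of the array, 1.83% were higher by 2-fold or more, and nothing is read from the single such gene in so short a list.

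Of 13 other receptors of the LDL receptor family, 10 were measured on both arrays with a median log2 ratio of -0.018. At least 2-fold lower was LRP12, with signals of 162 and 75.9 at 1 probe, a log2 ratio of -1.04, and of 286 and 161 at the other, a log2 ratio of -0.78. LRP1B, LRP2 and VLDLR, which bind many of the ligands of LRP1, were not well above background on either array. All 13 genes for folding, cleavage and signalling of LRP1 were measured, with a median of -0.0079 and 0 genes at least 2-fold apart. The highest was DAB2, an adaptor for endocytosis of such receptors, with 384 in SAS and 668 in eSAS and a log2 ratio of 0.85. The lowest was APBB1, an adaptor binding the tails of APP and LRP1, whose mean over its probes was -0.77. Over all probes measured in SAS, in eSAS or in both, 1.83% were higher and 1.97% lower by 2-fold or more. The counts of these short lists are therefore not read as a result.

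LRP1 also clears ligands other than A2M, and 11 of 13 of them were measured on both arrays with a median log2 ratio of -0.015. APOE, the apolipoprotein of remnant particles, was 4.37-fold lower in eSAS, with signals of 169 and 37.3 over 8 spots. TFPI, the inhibitor of the tissue factor pathway, was the highest with a mean of 0.83 over its probes. Of all measured probes of the array, 1.97% were lower by 2-fold or more, and nothing is read from the single such gene here.

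Among the endopeptidases that A2M can trap, 4 genes were lower in eSAS by 2-fold or more. Of 23 genes, 14 were well above background in either population and 11 in both, with a median log2 ratio of -0.13. Relative to all genes this median was -0.13 as well. It was 0.48 with normexp on mean pixels, where the median of all probes moved to 0.53. With normexp run without spots of marked local background, and the same offset, it was -0.096. Its sign therefore depended on the normexp setting. The lower genes were MMP1, MMP2, PRSS2 and PRSS3, each at 1 probe, and 0 genes were 2-fold or more higher. These were 4 of the 20 probes of the list that were measured, beside 1.97% over all probes. The list was drawn up with earlier results of these arrays known, so nothing is read from this share. The aggrecanase ADAMTS5 went the other way, with signals of 2.93 in SAS, where it was not well above background, and 17.7 in eSAS, a difference of at least 1.43-fold. The interstitial collagenase MMP1 had a signal of 351 in SAS and 17.6 in eSAS, where it was not well above background, a difference of at least 19.2-fold over 9 spots. The gelatinase MMP2 had 45 and 4.09 and was at least 2.85-fold lower over 8 spots. The trypsinogen PRSS3 had 162 and 34.3, a log2 ratio of -2.19. PRSS2 had 235 and 43.7 at 1 probe, a log2 ratio of -2.37, and 971 and 704 at the other, a log2 ratio of -0.41. Since trypsinogen genes are nearly identical in sequence, which of them these probes report is uncertain, and PRSS2 and PRSS3 may not be separate counts.

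**Figure D5:**
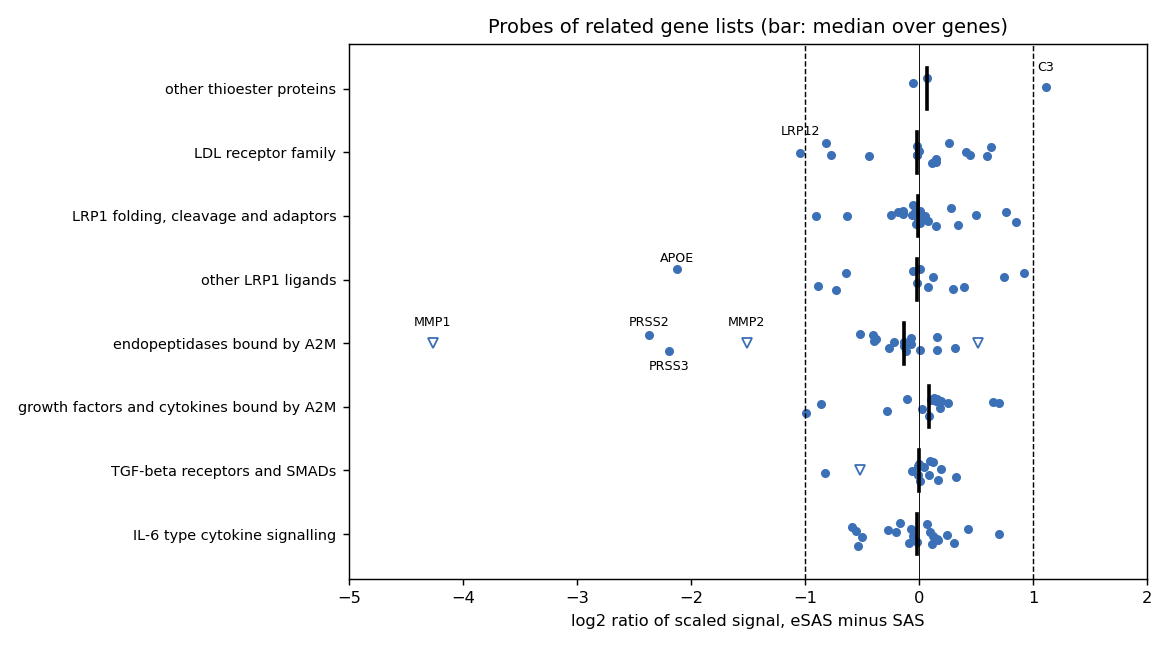
Log2 ratio of scaled signal, eSAS minus SAS, of the probes of 8 gene lists around A2M, with 1 point per probe measured on both arrays, open triangles for lower bounds and a black bar for the median over genes. Dashed lines mark 2-fold differences. The list medians lie between -0.13 and 0.084, with single genes such as MMP1, APOE and C3 outside the dashed lines.

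A2M also binds growth factors and cytokines, and 11 of 12 of these were measured on both arrays with a median log2 ratio of 0.084 and 0 genes at least 2-fold apart. The neurotrophin NTF3 was the lowest at -0.99, with signals of 193 and 93.3. The cytokine IL6 was the highest at 0.70, with 1378 in SAS and 2153 in eSAS over 10 spots. In the TGF-beta receptor and SMAD list, which is the pathway CD109 acts on, 7 of 9 genes were measured on both arrays with a median of -0.0023 and 0 genes at least 2-fold apart. The inhibitory SMAD7 was the lowest, with 913 in SAS and 495 in eSAS and a log2 ratio of -0.83, and the highest gene reached 0.18. In rat liver, A2M is known to respond to cytokines of the IL-6 type through STAT3, and whether it does so in these human cells was not tested. Of 13 genes of that signalling list, 12 were measured on both arrays with a median of -0.019 and 0 genes at least 2-fold apart. The receptor LIFR was the lowest at a mean of -0.56 over its probes, and IL6 was the highest. SOCS3, a feedback target of STAT3, had signals of 1798 and 1883 at 1 probe, a log2 ratio of 0.12, and of 49.4 and 47.0 at the other, a log2 ratio of -0.017. Over all probes measured in SAS, in eSAS or in both, 1.83% were higher and 1.97% lower by 2-fold or more. Counts of 0 in these short lists are therefore not read as a result.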

How the data were processed

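The authors deposited the Feature Extraction (10.7.3.1) output of 2 one-colour Agilent arrays, with linear intensity values per spot. Background and spatial trends had been removed by the scanner software, with no scaling between arrays. The deposited series table equalled the processed intensity in 45015 of 45015 spots per array, so its scale is linear and it is not centred (medians 113 for SAS and 106 for eSAS). The array procedure is described in earlier work and the scaling used by the authors is not given in the sources used here.

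From the processed intensity, log2 values were taken minus the 75th percentile of each array over non-control spots. Marked spots were left out and spots of 1 probe were averaged. To be well above background, a probe needed this mark on over 50 percent of its spots. Where this failed on 1 array, the lowest signal well above background there, or the probe's own signal if higher, gave a lower bound. Of 41000 probes, 40814 kept an unmarked spot. Positions were copied from the array annotation (hg18). Gene names came through accessions (23958 probes), symbols (2755) or older symbols (1032) of the RefSeq table of GRCh38.p14, and 13255 probes kept the array's name. Python 3.11.15, R 4.3.3 and limma 3.58.1 were used.

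The members, gene lists and tests were chosen with earlier results of these data known. Named were all members, the genes of each list or of the neighbourhood with a probe at least 2-fold apart and otherwise the highest and lowest, the markers well above background, and the 5 genes nearest to A2M by log2 ratio. C4B, OVOS2P, SOCS3, ADAMTS5, LINC00612 and genes given as not well above background were added after their values were seen. A result for a gene that meets the rule is not reported here. The counting was tested on simulated data with 3-fold changes in probes well above background on both arrays, so the lower bounds were not tested. With 1 array per population no test was made, and the number of arrays limits the precision. Alternatives in scaling, background correction, filters and marked spots were run. Every normexp setting added an offset of 50 to each spot.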

Additional observations from a re-analysis of the deposited data

How the results depend on the processing

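No paired analysis was possible because SAS and eSAS have 1 array each, and the slide could not be used as a block because both arrays share it. Other scalings moved the A2M log2 ratio by less than the spread of replicate spots. The authors' series table, other filters and keeping marked spots could not move it. The series table equals the processed signal, and the A2M spot was unmarked and well above background on both arrays. The A2M log2 ratio was 3.56 with normexp on mean pixels, 3.53 on median pixels and 4.05 with no background correction. Chosen after seeing the data were normexp without spots of marked local background, which gave 3.92, and the mean with the AF109189 probe, which gave 2.22. Under normexp on mean and median pixels, 2 family probes were at least 2-fold higher, the second being CPAMD8 (2.18 and 2.14), and the median of all probes moved to 0.53, so that 98.4% and 98.5% of calls were upwards against 48.2%, with the cause not tested. The probes at least 2-fold higher and lower over the array were then 11264 and 183 on mean pixels and 11251 and 177 on median pixels, against 520 and 559. They were 125 and 161 with no background correction, 250 and 335 with probes measured on both arrays only, 1375 and 1536 with no filter, and 86 and 156 with normexp without marked local backgrounds (35.5% upwards). Relative to all genes, the list medians under normexp on mean and median pixels were 0.75 and 0.78 for thioester proteins, 0.13 and 0.12 for the LDL receptor family, 0.16 and 0.13 for LRP1 folding and adaptors, 0.48 and 0.48 for endopeptidases, -0.24 and -0.24 for growth factors, -0.30 and -0.31 for TGF-beta receptors and SMADs, -0.48 and -0.48 for other LRP1 ligands, -0.26 and -0.26 for IL-6 type signalling, and 0.89 and 0.88 for the neighbourhood. In these settings signs turned for the LDL receptor, LRP1 folding, endopeptidase and growth factor lists. With normexp without marked local backgrounds, all of these medians lay between -0.096 and 0.073. With no filter the IL-6 list was at -0.14 and the neighbourhood at 0.21, and without rows 450 to 510, a setting added after seeing the data, the endopeptidases were at -0.27. The signs of the CD109 probes also turned under normexp on mean and median pixels, but not under normexp without marked local backgrounds. The sign of the A2ML1 probe turned in every normexp setting. In all, 130 values of A2M, of counts and of list medians stayed close to the reported ones and 40 moved. Part of the 130 could not differ. These include the values from the authors' series table, and the list medians relative to all genes under no scaling and median centring. For the family probes other than A2M, 75 values stayed close and 16 moved. The LRP1 value moved from -0.34 to -0.092 with normexp without marked local backgrounds. Under normexp on mean and median pixels and with no background correction, LRP1 had no bound. The dim LRP1 and PZP probes are limited by signal over background.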
